A study of Arabidopsis thaliana with 4 samples.

Results

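Transcripts of the cold-response pathway were compared between wild-type Arabidopsis thaliana (Col-0, WT) and the double mutant mp clv3, for 10 genes given by their locus identifiers: the transcription factor genes CBF1, CBF2 and CBF3, and the cold-regulated (COR) genes COR15A, COR15B, COR47, ERD10, KIN1, KIN2 and RD29A. All 10 were found among the 27322 gene models used, and all 10 had more than 6 reads in at least 1 genotype. The samples were shoot apices of flowering plants aged 6 weeks, freed of older flowers and grown at 22°C with 16 h of light and 8 h of dark; mp clv3 carried the alleles mp319 and clv3-7, and no single mutant was analysed here. MP is an auxin response factor and CLV3 a peptide that limits the stem cell population of the meristem. Neither the cold treatment of plants nor the time of day of harvest is mentioned in the labels, which give cold (4°C for 2 days) for the seeds alone.

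The labels give 2 biological replicates per genotype, but the deposited table has 1 column of reads and 1 of RPKM (reads per kilobase of gene model, scaled to the size of the library) for each genotype. Each value below is therefore a single value per genotype, no difference has a replicate check, and no p-value was computed. Over all models, the mp clv3 column summed to 103347441 reads and the WT column to 101878433. A ratio compares reads divided by these totals, and its 95% interval (exact, on read pairs) covers counting error only. Genes are described as higher or lower in mp clv3 relative to WT, and a gene counts as called when this ratio is at least 2-fold.

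The CBF proteins are closely related AP2/ERF transcription factors, also named DREB1, whose genes are switched on rapidly when a plant is chilled. They bind the C-repeat or dehydration-responsive element (DRE), with the core CCGAC, in the promoters of COR genes, and COR proteins are hydrophilic proteins that protect membranes and proteins during freezing and water loss. Several COR genes also respond to drought through abscisic acid (ABA), whose bZIP factors bind the ABA-responsive element (ABRE) with the core ACGTG.

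The DRE core links the factors to their targets, so every match to CCGAC in the 500 bases before the start codon is shown for the members that hold one. The matches were read from RefSeq TAIR10.1, on either strand, with 8 bases on each side. Capitals mark the core.
COR15A, chr2:17712397-17712417, minus strand, core 443 bases before the start codon: cttgttggCCGACatacattt
COR15A, chr2:17712220-17712240, minus strand, core 266 bases before the start codon: tttcatggCCGACctgctttt
COR15B, chr2:17710126-17710146, minus strand, core 265 bases before the start codon: cttgatggCCGACctcttttt
COR47, chr1:7085920-7085940, minus strand, core 268 bases before the start codon: ttcatctaCCGACttcaagaa
ERD10, chr1:7089373-7089393, minus strand, core 278 bases before the start codon: ttcatccaCCGACcgaccgac
ERD10, chr1:7089369-7089389, minus strand, core 274 bases before the start codon: tccaccgaCCGACcgacgtaa
ERD10, chr1:7089365-7089385, minus strand, core 270 bases before the start codon: ccgaccgaCCGACgtaaaaga
KIN1, chr5:5209806-5209826, plus strand, core 178 bases before the start codon: aatagctaCCGACataaggca
KIN2, chr5:5211773-5211793, plus strand, core 185 bases before the start codon: aaaagctaCCGACataaggca
RD29A, chr5:21240569-21240589, plus strand, core 352 bases before the start codon: gacatggaCCGACtactaata
RD29A, chr5:21240619-21240639, plus strand, core 302 bases before the start codon: atatcataCCGACatcagttt
RD29A, chr5:21240676-21240696, plus strand, core 245 bases before the start codon: atatactaCCGACatgagttc
RD29A, chr5:21240713-21240733, plus strand, core 208 bases before the start codon: agatcaagCCGACacagacac
All 7 COR genes held at least 1 core in this window and none of the 3 CBF genes did, while 23.4% of 27443 protein-coding genes held one. Each of the 13 cores lay on the coding strand of its gene and had A or G just before it. The 3 cores of ERD10 overlap in a repeat, the last C of a core being the first C of the next. The A before each later core of that repeat is therefore part of the core ahead of it. The KIN1 and KIN2 sites were identical at 20 of 21 positions. These are matches of letters and not shown binding sites.

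The 250 bases before the annotated gene start are shown for 5 members. COR15A and KIN2 were far lower in mp clv3, and RD29A held 3 DRE cores in this window. KIN1 is the near copy of KIN2 whose ratio was close to even, and CBF2 was the only member at least 2-fold higher. Capitals mark the DRE core, the ABRE core and the core bound by CAMTA factors, which is CGCGT, on either strand. The palindrome CACGTG counts as 2 overlapping matches to ACGTG.
COR15A, chr2:17712331-17712580, minus strand: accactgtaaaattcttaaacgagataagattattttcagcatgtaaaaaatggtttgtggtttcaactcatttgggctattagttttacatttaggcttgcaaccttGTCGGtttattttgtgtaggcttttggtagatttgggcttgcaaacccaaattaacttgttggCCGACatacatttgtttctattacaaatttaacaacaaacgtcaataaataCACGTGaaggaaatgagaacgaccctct
RD29A, chr5:21240467-21240716, plus strand: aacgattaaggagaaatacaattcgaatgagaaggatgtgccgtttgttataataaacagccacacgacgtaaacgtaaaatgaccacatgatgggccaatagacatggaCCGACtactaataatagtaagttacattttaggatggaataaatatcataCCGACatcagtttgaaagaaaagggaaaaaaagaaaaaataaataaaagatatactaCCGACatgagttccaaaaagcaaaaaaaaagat
KIN1, chr5:5209467-5209716, plus strand: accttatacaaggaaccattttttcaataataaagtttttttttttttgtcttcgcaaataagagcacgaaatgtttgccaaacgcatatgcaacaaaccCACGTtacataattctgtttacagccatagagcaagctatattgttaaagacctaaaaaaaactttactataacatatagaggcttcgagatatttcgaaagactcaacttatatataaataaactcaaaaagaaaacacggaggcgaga
KIN2, chr5:5211469-5211718, plus strand: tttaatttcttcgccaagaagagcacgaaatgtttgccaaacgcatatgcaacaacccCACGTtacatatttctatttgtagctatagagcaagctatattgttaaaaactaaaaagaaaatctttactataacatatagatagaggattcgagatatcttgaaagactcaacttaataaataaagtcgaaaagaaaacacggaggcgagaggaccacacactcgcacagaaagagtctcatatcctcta
CBF2, chr4:13016236-13016485, minus strand: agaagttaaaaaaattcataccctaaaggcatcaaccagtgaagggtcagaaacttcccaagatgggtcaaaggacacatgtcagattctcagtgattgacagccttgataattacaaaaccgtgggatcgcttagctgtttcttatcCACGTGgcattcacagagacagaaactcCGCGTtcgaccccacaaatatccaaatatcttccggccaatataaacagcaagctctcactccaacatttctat
Over all promoters of this length, 12% held CCGAC, 22.9% held ACGTG and 6.87% held CGCGT. Aligned end to end, the KIN1 and KIN2 windows were identical in 185 of 295 columns (62.7%). The 3 pairs of CBF windows were identical in 42.9%, 51.2% and 40.7% of columns. Columns with a gap count here as not identical, so the identity where base faces base is higher than each of these values. Of the 10 members, only COR15A and RD29A held CCGAC this close to the annotated start. The sites printed above for the other 5 COR genes lie downstream of the annotated starts of those genes. So do the COR15A core 266 bases and the RD29A core 208 bases before the start codon. Within 1 kb upstream of the annotated start, CCGAC also occurred once each in COR15B, COR47 and KIN1, 2 times in ERD10 and 0 times in KIN2. Over all promoters of that length, 37.4% held it. Beyond its nearest 7 bases, the 1 kb upstream of COR15B lies within the COR15A gene.

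**Figure D1:**
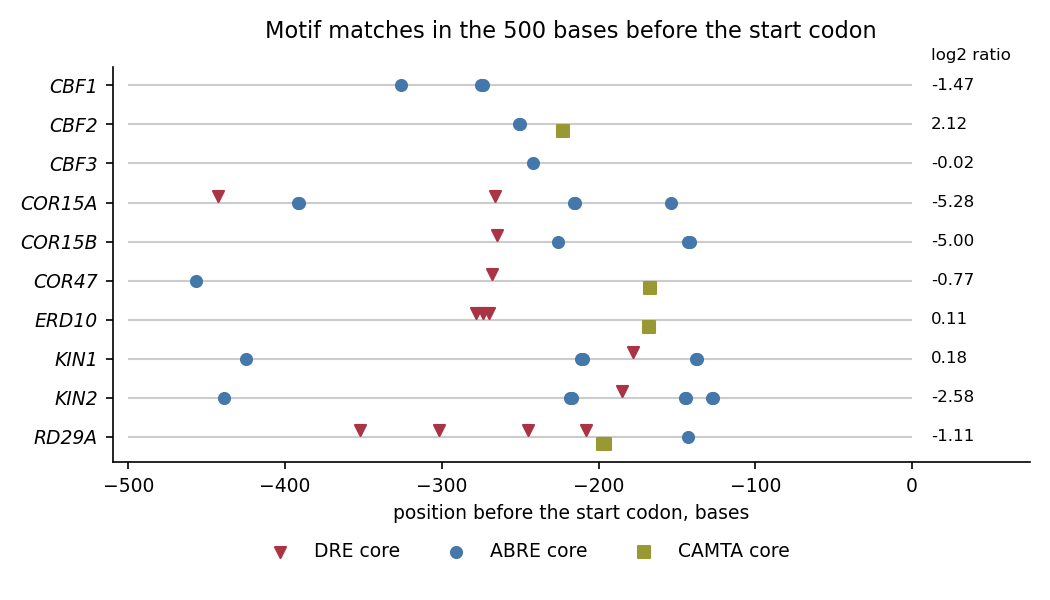
Positions of DRE, ABRE and CAMTA cores (triangles, circles and squares) in the 500 bases before the start codon of each member, with the log2 ratio of mp clv3 over WT at the right. DRE cores are present in genes with ratios from -5.28 (COR15A) to 0.18 (KIN1) and absent from the CBF genes. Every member except ERD10 holds an ABRE core, and CBF2, COR47, ERD10 and RD29A hold a CAMTA core. Over all protein-coding genes, 23.4% held a DRE core, 34.9% an ABRE core and 13.4% a CAMTA core in this window.

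The 7 COR genes spread from near even to 38.9-fold lower, while the CBF genes were at low levels in both genotypes and went in different directions. Of the 10 members, 5 were at least 2-fold lower in mp clv3 (COR15A, COR15B, KIN2, CBF1 and RD29A), against 23.8% of the 23060 gene models with more than 6 reads in either genotype. At least 2-fold higher was 1 member, CBF2, against 11.5% of models. COR47, ERD10, KIN1 and CBF3 passed neither limit. The median log2 ratio of the members was -0.94, and that of all models was -0.15. With the whole counting interval required beyond 2-fold, 4 members were lower (17.1% of models) and 1 was higher (8.73%), CBF1 being the member that dropped out. Among the 7 members at 5 RPKM or more in either genotype, 4 were at least 2-fold lower and 0 higher, against 14.5% and 10.2% of the 16162 models at that level. The authors' deposited table gives an FDR under 0.05 to 6 members with a lower and 3 with a higher level, against 50.8% and 36.9% of models, and CBF3 was the exception with an FDR of 0.915.

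**Figure D2:**
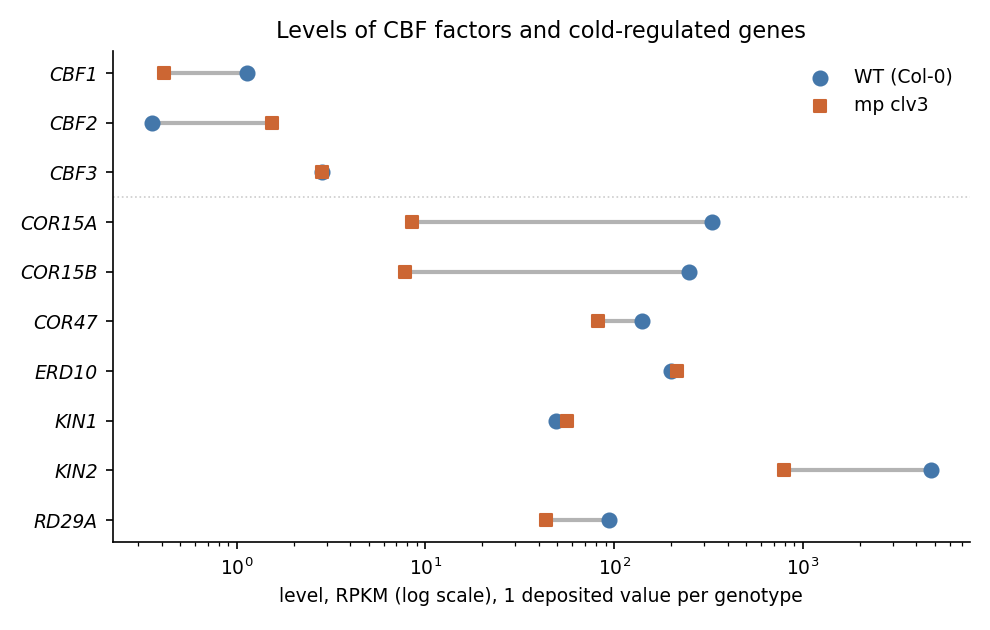
Level of each member in RPKM on a log axis, with 1 deposited value for WT (circles) and 1 for mp clv3 (squares). COR15A, COR15B and KIN2 show the widest gaps, and the CBF genes stay below 3 RPKM in both genotypes.

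CBF1, CBF2 and CBF3 lie side by side on the minus strand of chromosome 4 (TAIR10.1), each as a single exon: CBF2 (AT4G25470) at 13015250 to 13016235, CBF3 (AT4G25480, DREB1A in RefSeq) at 13018010 to 13019400 and CBF1 (AT4G25490) at 13021780 to 13022996. CBF3 had the most reads of the 3 in each genotype, with 264 for mp clv3 and 263 for WT, or 2.81 and 2.84 RPKM. Its log2 ratio was -0.02 (-0.38 to 0.34), which counting error cannot tell from even and which turned positive under TMM scaling (0.08). CBF2 had 150 mp clv3 reads and 34 WT reads, 1.54 against 0.354 RPKM, and was 4.35-fold higher (2.54 to 7.86). CBF1 went the other way, with 40 reads against 109, 0.409 against 1.13 RPKM, and was 2.76-fold lower (1.65 to 4.91). Its interval includes 2-fold, and with a pseudocount of 1 RPKM neither CBF1 (-0.60) nor CBF2 (0.91) reached a log2 ratio of 1.

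The order of the 3 factor genes therefore differed between the columns: CBF3, CBF1, CBF2 in WT and CBF3, CBF2, CBF1 in mp clv3. CBF2 took 33% of the read pairs of the 3 genes in mp clv3 (27.0 to 39.6, Clopper-Pearson) and 8.33% in WT (4.93 to 13.0). CBF1 took 8.81% (5.46 to 13.3) and 27.0% (21.0 to 33.6). Summed over the 3 genes, 454 mp clv3 reads and 406 WT reads gave a ratio of 1.10 (0.908 to 1.34). All 3 were among the lower levels of the transcriptome, where the median model was at 6.69 RPKM in mp clv3 and 7.42 in WT. The coding sequences of the 3 genes were identical in 85.0% to 86.7% of alignment columns, gap columns included. No stretch of 100 bases, the read length, was shared exactly with a transcript of another gene.

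**Figure D3:**
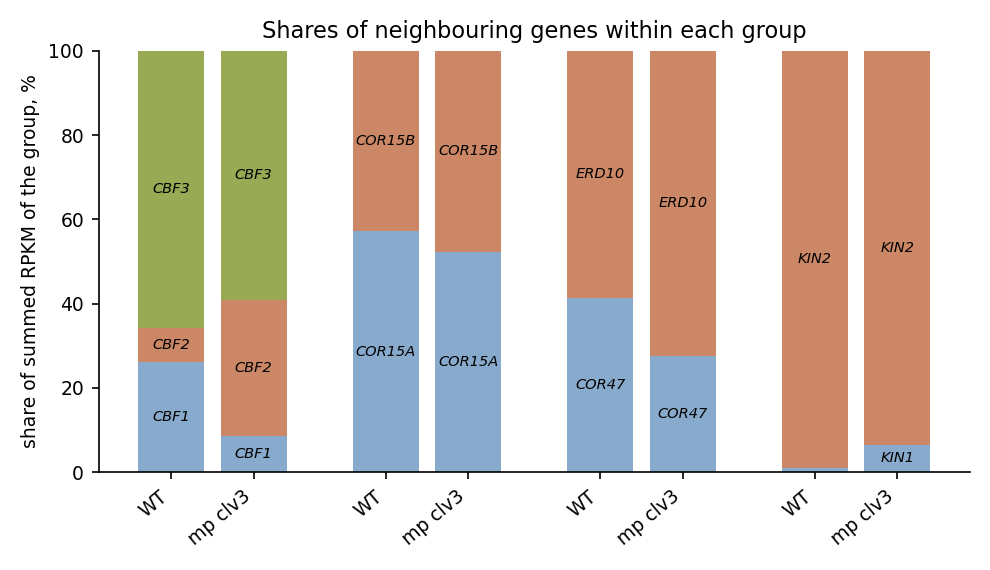
Share of each gene in the summed RPKM of its group of neighbouring genes, by genotype. CBF2 and CBF1 exchange places beneath CBF3, the COR15 pair keeps similar shares, and KIN1 and ERD10 hold larger shares in mp clv3 than in WT.

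COR15A and COR15B were the members with the lowest ratios. They encode small proteins of the chloroplast stroma that stabilise chloroplast membranes during freezing. COR15A (AT2G42540, chromosome 2, 17710441 to 17712330, minus strand, up to 4 exons) had 578 mp clv3 reads and 22162 WT reads, 8.51 against 331 RPKM, and was 38.9-fold lower (34.6 to 43.9). COR15B (AT2G42530, 17708593 to 17710433, minus strand, 2 exons) had 525 reads against 16538, 7.78 against 249 RPKM, and was 32.0-fold lower (28.2 to 36.2).

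Among all models above 6 reads, 2.07% had a ratio as low as that of COR15A or lower. In level, COR15A ranked 343 among all models in WT and 12627 in mp clv3, so a gene of the upper range in WT lay near the middle in mp clv3. The pair is separated by 7 bases and its coding sequences were identical in 82.6% of alignment columns, gap columns included. COR15A held 57.3% of the pair's read pairs in WT (56.6 to 58.0) and 52.4% in mp clv3 (48.1 to 56.6). The annotated span of COR15B shares 468 bases with AT2G42520 on the opposite strand, and 24.8% of its possible stretches of 100 bases occur in transcripts of that gene. AT2G42520 had 5391 mp clv3 reads and 5307 WT reads, a log2 ratio of 0.00, and no source used here states whether the authors counted by strand.

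The acidic dehydrins COR47 and ERD10, which bind water, membranes and unfolded proteins, were far closer to even than the COR15 pair. COR47 (AT1G20440, chromosome 1, 7084409 to 7086873, minus strand, 2 exons) had 10383 mp clv3 reads and 17495 WT reads, 82.4 against 141 RPKM, and was 1.71-fold lower (1.65 to 1.77). ERD10 (AT1G20450, 7087903 to 7089606, minus strand, 2 exons) had 33734 reads against 30799, 216 against 199.7 RPKM, a log2 ratio of 0.11 (0.08 to 0.14). The genes are 1029 bases apart. Their coding sequences were identical in 614 of 835 alignment columns (73.5%), where columns with a gap count as not identical. ERD10 stood at 1.42 times the RPKM of COR47 in WT and 2.62 times in mp clv3. Per length, COR15A stood at 1.66 times the level of ERD10 in WT, whereas ERD10 stood at 25.3 times the level of COR15A in mp clv3.

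KIN2 was the most abundant member in both genotypes. KIN1 and KIN2 encode small hydrophilic proteins that are nearly the same, with coding sequences identical at 95% of 201 positions and genes 892 bases apart. KIN2 (AT5G15970, chromosome 5, 5211719 to 5212743, plus strand, 3 exons) had 39656 mp clv3 reads and 233195 WT reads, 799 against 4769 RPKM, and was 5.97-fold lower (5.88 to 6.06). In WT it ranked 3 of 27322 models in RPKM and took 0.229% of all reads. In mp clv3 it ranked 52.

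KIN1 (AT5G15960, 5209717 to 5210826, plus strand, 3 exons) did not share this difference. It had 3177 mp clv3 reads and 2762 WT reads, 56.0 against 49.4 RPKM, a log2 ratio of 0.18 (0.08 to 0.29). KIN2 stood at 96.6 times the RPKM of KIN1 in WT and at 14.3 times in mp clv3. No stretch of 100 bases in either transcript was shared exactly with another gene, although no source used here states how the authors placed reads that match several genes. Summed over the pair, the reads were 5.59-fold lower in mp clv3 (5.51 to 5.67), a value set almost wholly by KIN2.

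RD29A (AT5G52310, chromosome 5, 21240717 to 21243644, plus strand, 4 exons; LTI78 in RefSeq) encodes a hydrophilic protein and is a widely used reporter of cold, drought and ABA responses. It had 11219 mp clv3 reads and 23830 WT reads, 43.4 against 93.6 RPKM, and was 2.15-fold lower (2.09 to 2.22). It is the called member nearest to the limit among the COR genes, with COR47 on the other side of it. Its neighbour RD29B, which responds chiefly to ABA, stood 17.0-fold lower (13.2 to 21.8), with 137 reads against 2296.

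**Figure D4:**
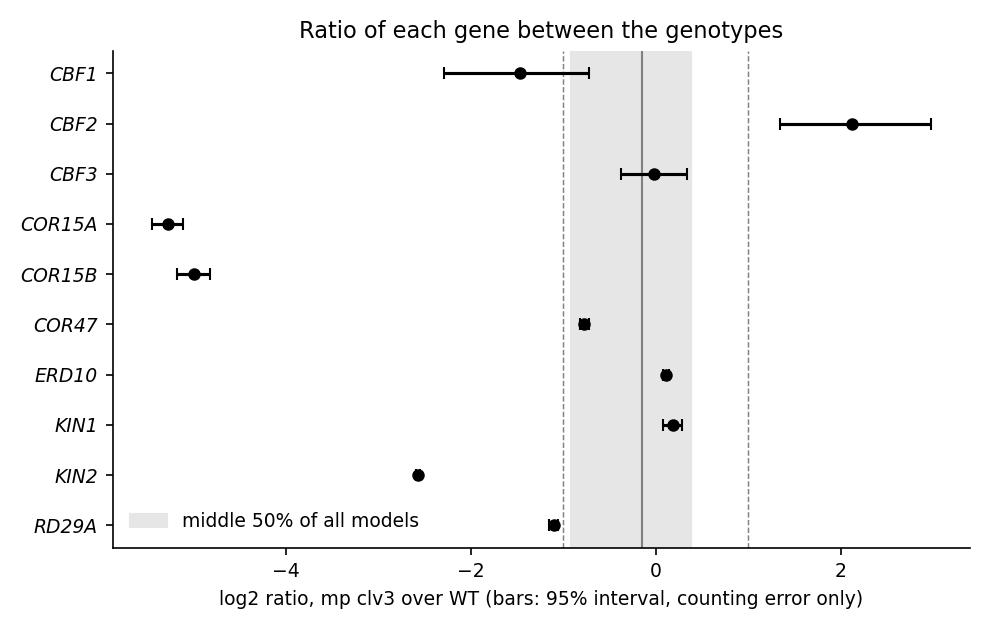
Log2 ratio of mp clv3 over WT for each member, with 95% intervals that cover counting error only. The grey band runs from the lower to the upper quartile of all models above 6 reads (-0.92 to 0.38), the solid line is their median and the dashed lines mark 2-fold.

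The 7 COR genes together took 3.54-fold fewer reads in mp clv3 (3.51 to 3.58), 99272 against 346781. KIN2 alone made up 67.2% of their read pairs in WT and 39.9% in mp clv3. Of their summed RPKM, which is scaled by length, it made up 81.8% in WT and 65.9% in mp clv3. These are whole apices, so fewer cells of a type and less RNA per cell cannot be told apart. Markers of other tissues differed between the same columns. The 4 genes listed as shoot meristem markers (STM, KNAT1, CLV1 and LFY) were all present. Their summed levels were 297 RPKM in mp clv3 and 147 in WT, of which STM made up 217 and 68.8. STM was 3.16-fold higher (3.05 to 3.26) and CLV1 2.54-fold higher (2.43 to 2.65), KNAT1 was 3.97-fold lower (3.71 to 4.25), and LFY was at a log2 ratio of 0.70. The 6 leaf photosynthesis markers all had ratios below even, as did 13204 of the 23060 models above 6 reads. Of the 6, 2 were at least 2-fold lower, against 23.8% of those models. The summed level of the 6 was 3702 RPKM in mp clv3 and 7880 in WT. All 6 tapetum markers were at least 2-fold lower (23.8% of all models), with summed levels of 13.5 RPKM in mp clv3 and 652 in WT. LAP6 made up 13.4 of the 13.5 RPKM, with 1811 mp clv3 reads and 17059 WT reads. Each other tapetum marker had at most 8 reads in mp clv3, and MS2 had 0. The 4 pollen markers were also at least 2-fold lower, at 1.91 and 12.3 RPKM in sum, and the 5 seed markers stood at 0.721 and 1.67 RPKM, with EM6 and OLEO1 at 0 reads in mp clv3 and SESA1 at 32 reads there against 2 in WT. The part of these tissues in the values of the COR genes was not tested.

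The other genes around the pathway were taken from 7 lists, whose counts are read against the 23060 models above 6 reads, of which 9856 had ratios above even. Among 13 activators of CBF transcription, 10 had ratios above even, and ICE1 and ICE2 were among the 3 below it. Of the 13, 4 were at least 2-fold higher (11.5% of all models) and 2 at least 2-fold lower (23.8%), and their median log2 ratio was 0.61. ICE1 and ICE2, bHLH factors that bind CBF promoters and also act in stomatal development, were 1.7-fold (1.62 to 1.78) and 3.88-fold (3.55 to 4.23) lower, at 26.0 against 44.0 RPKM and 6.23 against 24.2 RPKM. The calmodulin-binding factor gene CAMTA3, which acts on CBF2 and also restrains defence genes, was 3.65-fold higher (3.52 to 3.79), at 77.0 against 21.1 RPKM. The log2 ratio was 0.41 (0.35 to 0.47) for CAMTA1 and 0.42 (0.35 to 0.49) for CAMTA2. The clock factor gene RVE8 was 5.07-fold higher (3.91 to 6.57), at 5.15 against 1.02 RPKM.

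Among 15 repressors, 6 passed the limit as higher (11.5% of all models) and 1 as lower (23.8%), and the median was 0.72. MYB15, a MYB factor that represses CBF genes, had 2777 mp clv3 reads and 3 WT reads, a ratio of 913 (189 to 5659) whose width comes from the WT count. The zinc finger gene ZAT12, induced by many stresses, was 67.8-fold higher (51.4 to 89.6), at 87.3 against 1.29 RPKM. The bHLH factor gene PIF4, which acts in warmth and shade, was at 3.11 against 6.14 RPKM with a log2 ratio of -0.98 (-1.19 to -0.77), and the chromatin factor gene FVE was at -0.14 (-0.19 to -0.10).

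Among transcription factors induced in parallel with the CBF genes in the first wave of the cold response, 10 of 14 were at least 2-fold higher (11.5% of all models) and 1 was at least 2-fold lower (23.8%), and the median log2 ratio was 2.73. WRKY33, a factor of pathogen defence, was 25.9-fold higher (24.0 to 28), at 181 against 7.00 RPKM. ZAT12 belongs to this list as well, and DEAR1 (361 reads against 18) is counted as higher both in this list and in the next. HSFC1, a heat shock factor gene, was 7.19-fold lower (5.85 to 8.82), and CRF2 was at -0.25 (-0.36 to -0.15). Of 12 AP2/ERF family genes listed as relatives of the CBF genes, 5 passed the limit as higher (11.5% of all models). As lower, 3 passed it, a share near the 23.8% of all models, and the median was 0.38. The list is called DREB relatives below, but not every gene on it is of the DREB group. RAP2.6 was 14.1-fold higher (11.3 to 17.7), DREB2C 8.44-fold (7.4 to 9.65) and RAP2.4 3.09-fold (2.99 to 3.20), and DREB2B was at -0.06 (-0.25 to 0.14). CBF4, the closest relative and a factor of drought rather than cold, had 64 reads against 78, a log2 ratio of -0.31 (-1.03 to 0.41).

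**Figure D5:**
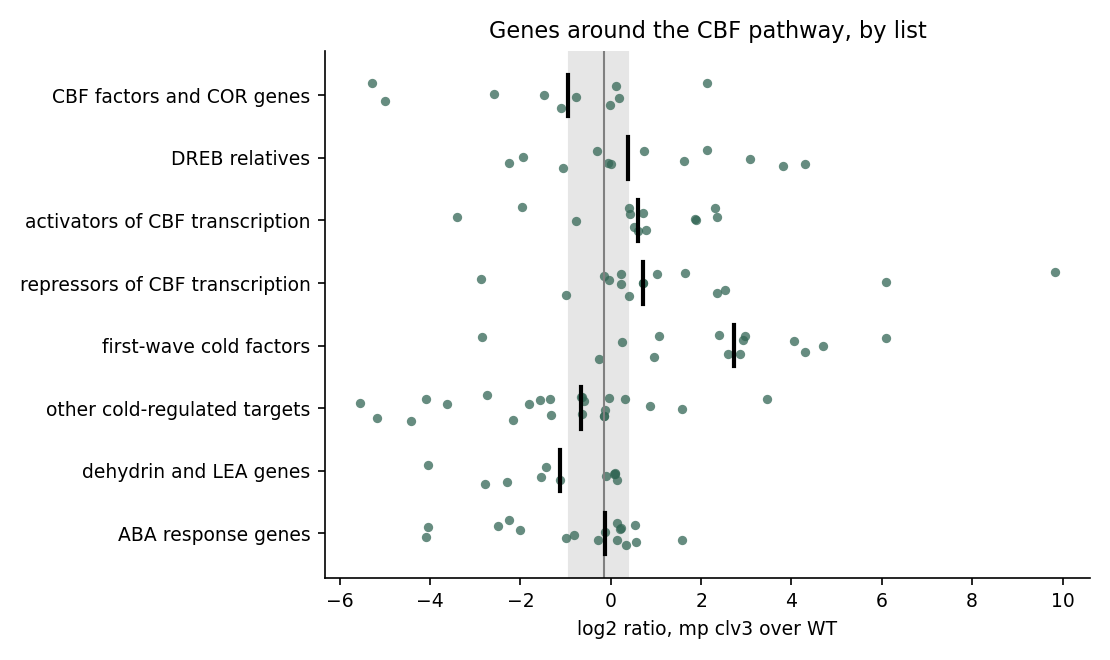
Log2 ratio of mp clv3 over WT for each gene above 6 reads (points) in the 10 members and the 7 lists, with the median of each list as a black bar and the quartile range of all models in grey. The first-wave factors have the highest median (2.73) and the dehydrin and LEA genes the lowest (-1.13).

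Among 23 other cold-regulated targets measured above 6 reads, 11 passed the 2-fold limit as lower and 2 as higher, and the median was -0.66. All models, too, were more often lower (23.8%) than higher (11.5%). LTP4, a lipid transfer protein gene with a close neighbour copy, stood 47.0-fold lower (43.2 to 51.2), with 1096 reads against 50766. RCI2B, which encodes a small membrane protein, had 7 reads against 251, 36.4-fold lower (12.2 to 119). The sugar transporter gene ERD6 reached 212 RPKM against 19.2, 11-fold higher (10.5 to 11.6), and the galactinol synthase gene GOLS1 was 3.0-fold higher (2.56 to 3.52).

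Dehydrin and other late embryogenesis abundant (LEA) genes included none at least 2-fold higher (11.5% of all models). Of 11, 6 passed the limit as lower (23.8%), and the median was -1.13. The 6 include the seed markers EM1 (23 reads against 112) and EM6 (0 against 16, with 6 reads taken for 0). With a pseudocount of 1 or 5 RPKM, 4 were lower. RAB18, an ABA-responsive dehydrin gene, stood 16.5-fold lower (15.6 to 17.3), with 3048 reads against 49460, and LEA7 was 6.92-fold lower (6.29 to 7.63). The dehydrin genes ERD14 and LTI30 were at 0.13 (0.11 to 0.16) and 0.09 (0.01 to 0.17), near the value of ERD10. ABA response genes had a median of -0.12, near the -0.15 of all models. Of 17, 5 were at least 2-fold lower and 1 higher, shares near the 23.8% and 11.5% of all models. RD29B and RAB18, which are also in the lists above, had the lowest ratios of the 17. The NAC factor gene RD26 was 2.99-fold higher (2.64 to 3.38), and the ABRE-binding factor gene ABF4 was at 0.56 (0.48 to 0.63).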

How the data were processed

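RNA of 4 samples, 2 per genotype, was sequenced as paired reads of 100 bases from purified mRNA in libraries described as strand-specific, per the labels' protocols. CASAVA 1.7, BWA and TAIR10 appear, with no roles, per the submitters' processing notes. Reads per model, as deposited, were treated as estimated counts, and the 0.5 standing for 0 was set back to 0. The RPKM values and the log2 ratio were also deposited by the authors, and the test behind the FDR, an adjusted p-value column deposited by the authors, is not stated. Whether a column sums both replicates is not stated either. From 27323 models, 1 with shifted cells was left out. The reads over all models give the depth.

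The design foresaw edgeR's quasi-likelihood test, which needs a column per library, so ratios with exact (Clopper-Pearson) intervals on read pairs (reads divided by 2, rounded up; SciPy 1.17.1) were used instead. They cover counting error only, with neither plant-to-plant spread nor PCR duplicates. For 0 reads, 6 reads (3 pairs) were taken, and 4262 models that did not exceed 6 reads in either genotype were left out of shares and medians. TMM factors came from edgeR 4.0.16. Coordinates, sequences and names are from RefSeq TAIR10.1, alignments from Biopython 1.88; the members were compared by coding sequence, and the planned protein identity was not computed.

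The members and lists were chosen with earlier results of these data known. From each list, the 2 highest and 2 lowest ratios among genes at 5 RPKM or more were named, plus RD29B, CBF4, ICE1, ICE2 and the CAMTA genes. DEAR1, EM1 and EM6 were named as well, since each is on 2 lists. Alternatives were other scalings, pseudocounts, an RPKM minimum, other fold limits and summed copies.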

Additional observations from a re-analysis of the deposited data

How the results depend on the processing

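No paired analysis was possible because the columns carry no replicate numbers, and for the same reason no replicate could be left out. TMM and median-of-ratios scaling raised every log2 ratio by 0.09 and 0.10, and left the counts of members called at 1 higher and 5 lower. They kept the side of the 2-fold limit for 10 of 10 members, with RD29A closest to it at -1.01 under both. On single reads in place of pairs, 10 of 10 members kept their side of 2-fold by interval. With a pseudocount of 1 RPKM, 8 of 10 kept their side of 2-fold and 0 members were called higher. That setting called 2942 models lower, and 0 DREB relatives, 1 activator and 0 repressors lower. With 5 RPKM the counts were 1161 models higher and 1464 lower, 0 members higher, 0 DREB relatives lower, 1 activator higher and 1 lower, 0 repressors lower and 1 other cold-regulated target higher. A minimum of 1 RPKM in either genotype left 3636 models, 1 DREB relative, 1 activator and 0 repressors lower. A 1.5-fold limit called 4246 models and 7 activators higher and 2 repressors lower. With the whole interval beyond 2-fold, 1 DREB relative and 1 activator were lower. These shifts follow from the construction of each setting, since pseudocounts and minimums act on low levels. Summing the copies kept the sign for 4 of 7 members and the side of 2-fold for 4 of 7, by construction, since each copy takes its group's value: 0.14 (log2) for the CBF genes, which reversed CBF1 (from -1.47) and moved CBF2 from 2.12, and -2.48 for the KIN genes, which moved KIN1 from 0.18. Depth limits the CBF genes, where CBF1 and CBF2 rest on 34 to 150 reads.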

Other observations

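The genes in this section were chosen after their values were seen. Within the COR413 family of membrane proteins, the chloroplast inner membrane genes COR413IM1 and COR413IM2 were 12.3-fold (10.7 to 14.3) and 2.94-fold (2.69 to 3.21) lower in mp clv3, while the plasma membrane genes COR413PM1 and COR413PM2 had log2 ratios of -0.64 (-0.69 to -0.60) for the first and -0.15 (-0.25 to -0.05) for the second. COR413IM1 stood at 4.38 against 54.1 RPKM. RCI2A, the neighbour of RCI2B, was 6.71-fold lower (6.37 to 7.06), and LTP3, the neighbour of LTP4, was 21.3-fold lower (20.1 to 22.6), at 32.5 against 693 RPKM. The cold-regulated clock-linked gene COR27 was at -0.12 (-0.16 to -0.08), and AT4G33980, listed as COR28, at 0.87 (0.80 to 0.94).

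Clock genes on the regulator lists had different ratios. The morning factor genes CCA1 and LHY were 4.93-fold (3.92 to 6.21) and 3.69-fold (2.74 to 5.06) higher in mp clv3, at 3.91 against 0.792 and 1.5 against 0.407 RPKM. PRR9 was 5.77-fold higher (4.4 to 7.68) and PRR5 3.13-fold higher (3.03 to 3.24), whereas PRR7 was at a log2 ratio of -0.05 (-0.12 to 0.02). The drought factor gene DREB2A was 4.4-fold higher (3.99 to 4.85), and DDF1, another close relative of the CBF genes, had 14 reads against 53.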
